A study of Mus musculus with 6 samples.

Results

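The antioxidant genes described here are 39 genes of the glutathione, thioredoxin and NRF2 systems, chosen by symbol, and all 39 were found among the 22899 genes of each deposited table. RNA came from helper T lymphocytes (CD4+ T cells) that were sorted by flow cytometry from the spleens of C57BL/6 mice. Obese mice received a high-fat diet with 60 kcal% fat, lean mice a normal diet, and the diets generally began at 6 to 8 weeks of age and lasted up to 4 months. Each group had 3 libraries (obese 1 to 3 and lean 1 to 3). The sources used here do not give sex, age at collection or the number of mice behind each library, so p-values speak only of the spread among the libraries, which may be technical. Values are FPKM, the fragments of a gene relative to its transcript length and to all mapped fragments. No read counts were used, so the depth behind each value is unknown.

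Cells dispose of hydrogen peroxide and lipid peroxides through a pair of thiol systems, in which glutathione or thioredoxin gives electrons to peroxidases and is then reduced again with NADPH. Superoxide dismutases and catalase act beside them, and sulfiredoxin, glutaredoxins and methionine sulfoxide reductases repair oxidised protein residues. NRF2, encoded by Nfe2l2, is a transcription factor that KEAP1 holds for degradation until oxidants or electrophiles modify KEAP1. Freed NRF2 binds antioxidant response elements and drives genes of glutathione synthesis, thioredoxin reduction and quinone reduction. In T cells glutathione is known to sustain growth after activation.

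The antioxidant response element was searched for as TGACNNNGC, where N is any base, on both strands of RefSeq promoter windows (assembly GRCm38.p6, 250 bases before to 50 after a gene's start). The form with G in place of the first C was not searched for. A gene without a match may thus hold that form, as the windows of Gstp1 and Srxn1 do. Its share over all genes is not known. Windows were found for 34 of the 39 genes. The motif was present for 8 of the 34 (23.5%), against 17.0% of the 8761 tested genes with a window. Counted by window, it was in 8 of 46 windows of these genes (17.4%), against 12.4% of all 32851 windows. All are matches of letters and not shown binding sites. No match was found in the window of Nqo1, another classic NRF2 target, or in the further windows of Mgst1 and Txnrd1. Gclc had no window. The 8 matches are shown because they include the gene with the smallest p of the 39, Mgst1, and classic NRF2 target genes such as Gclm, Prdx1, Srxn1 and Txnrd1. Each is given 5′ to 3′ on its own strand with 10 bases on either side, and the fixed letters of the motif are in capitals. The match of Srxn1 lies 28 bases after the annotated start, and the others lie before theirs.
Mgst1: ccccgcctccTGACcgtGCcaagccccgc
Gclm: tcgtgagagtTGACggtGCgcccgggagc
Gstm5: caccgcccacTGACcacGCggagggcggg
Nfe2l2: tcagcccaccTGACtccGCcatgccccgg
Prdx1: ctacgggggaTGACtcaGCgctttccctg
Sod1: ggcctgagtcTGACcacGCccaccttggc
Srxn1: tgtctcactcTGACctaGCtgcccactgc
Txnrd1: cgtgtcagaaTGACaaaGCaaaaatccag
The 250 bases before the annotated start of Mgst1 (chr6:138140277-138140526, GRCm38.p6, plus strand) follow, with the match in capitals on the complementary strand.
Mgst1 promoter: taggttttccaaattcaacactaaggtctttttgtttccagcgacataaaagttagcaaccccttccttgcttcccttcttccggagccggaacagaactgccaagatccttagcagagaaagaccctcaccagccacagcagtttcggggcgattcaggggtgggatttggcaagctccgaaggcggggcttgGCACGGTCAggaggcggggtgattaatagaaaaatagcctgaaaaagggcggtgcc

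The libraries carried helper T cell transcripts, with Cd4 between 279.3 and 325.3 FPKM in obese and between 323.8 and 362.6 FPKM in lean libraries. A marker is said to rise or fall where it was called by the test described in the next paragraph. By that test 5.77% of all tested genes were higher and 0.519% lower. None of the 7 helper T cell markers was called. On the log2 scale 6 of the 7 were lower in obese libraries and 1 was higher (median difference −0.09). Cd3d had all obese libraries below all lean ones, as had 6.15% of all tested genes. The libraries also carried transcripts of other cells. All 11 tested erythroid markers rose, and the 13 erythroid genes read summed to between 4368 and 29065 FPKM in obese and between 175.7 and 476.8 FPKM in lean libraries. Alpha and beta globins took 4.56%, 0.702% and 3.89% of the summed FPKM in obese 1, obese 2 and obese 3, and at most 0.0710% in a lean library. All 15 macrophage and monocyte markers rose, with sums of 1605 to 1774 FPKM in obese and 684.5 to 778.0 FPKM in lean libraries. Of 11 neutrophil markers 6 fell, with sums of 157.0 to 461.3 FPKM in obese and 601.3 to 871.8 FPKM in lean libraries. Of 6 natural killer cell markers 3 fell, with sums of 79.7 to 97.5 FPKM in obese and 107.8 to 134.1 FPKM in lean libraries. Of 5 plasma cell markers 1 rose, with sums of 687.1 to 1269 FPKM in obese and 406.3 to 486.6 FPKM in lean libraries. No marker of B cells (6 tested), CD8 T cells (2), dendritic cells (3) or platelets (4) was called, and no marker of any list was at 0 in every library. In bulk RNA, fewer cells of a type and less RNA per cell cannot be told apart.

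Obese libraries were compared with lean ones to ask which antioxidant genes differ with diet-induced obesity in splenic helper T cells. Each gene was tested with limma on log2(FPKM + 1), together with the 10788 genes that had at least 1 FPKM in at least 3 libraries, and was called where its Benjamini-Hochberg adjusted p over all of them was under 0.05. Differences are obese minus lean on that log2 scale, with limma's SE, and they understate the change of low genes. All 39 antioxidant genes passed the filter. Mgst1, Gpx1 and Txnrd2 rose and none fell, so 7.69% were called higher, against 5.77% of all tested genes (0.519% were lower and 6.28% were called in either direction), which is near that background. The median difference was 0.22 over the 39 genes and 0.10 over all tested genes. The obese libraries lay wholly above the lean ones for 20 of the 39 (51.3%), against 25.4% of all tested genes, and wholly below them for 1 (2.56%), against 6.15%. A positive difference was found for 31 of 39 (79.5%), against 70.8% of all tested genes. These counts rest on the deposited values with no further scaling, and the genes they stand against were not matched for level. No test is given for them. Over all genes 622 were higher and 56 lower, and after median-of-ratios scaling, which moves the median of all genes to 0, these numbers were 441 and 129. With that scaling the calls among the antioxidant genes were 1 higher (Mgst1) and 1 lower (Txn2). Under TPM scaling, which brings every library to the same sum, 5 were higher (6.55% of all tested genes were). When 10 haemoglobin genes and Igll1 were left out of that sum, 12 were higher (8.82% of all tested genes were). With library weights, which count libraries that stand apart for less, 17 were higher (23.2% of all tested genes) and Txn2 and Gstp1 were lower (5.65% of all tested genes). The number of antioxidant genes called higher was 1 without lean 1, obese 1 or obese 3, fits in which 2.80%, 4.10% and 3.87% of all tested genes were higher. It was 6 without obese 2, where 4.79% of all tested genes were higher (517).

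**Figure D1:**
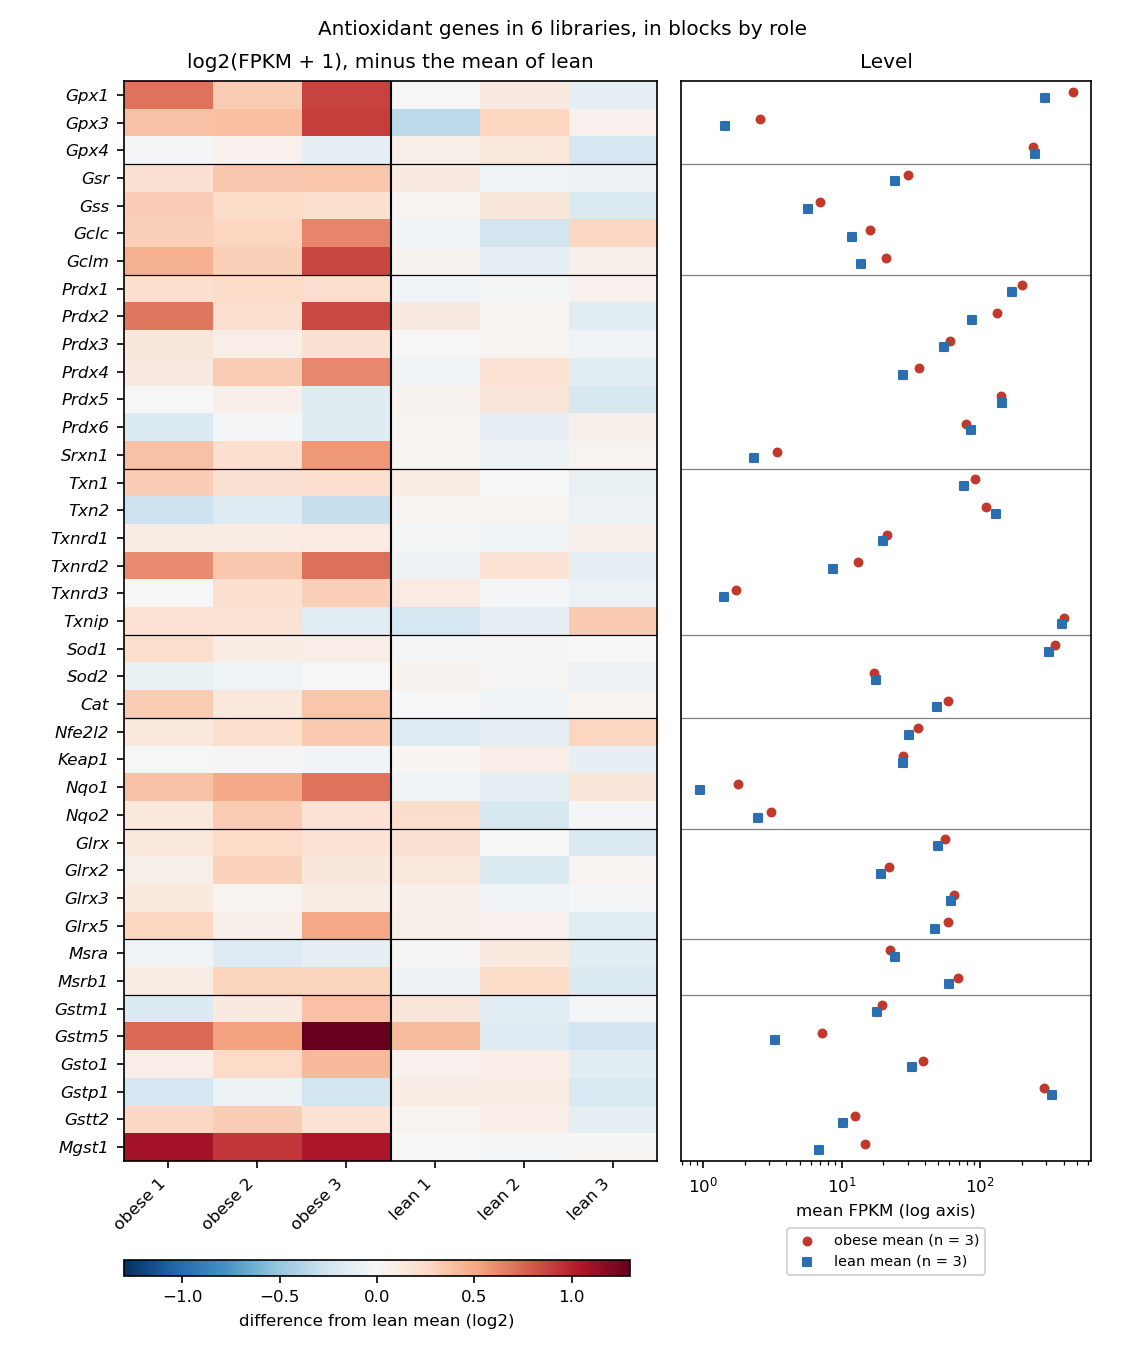
Heat map of log2(FPKM + 1) minus the lean mean for the 39 antioxidant genes (rows, in blocks by role) in 3 obese and 3 lean libraries (columns), beside each gene's mean FPKM on a log axis for obese (circles) and lean (squares) libraries. The row of Mgst1 is red in all 3 obese libraries, while Gpx1 and Prdx2 are paler in obese 2 than in obese 1 and obese 3, and the group means run from 0.943 FPKM for Nqo1 in lean libraries to 464.2 FPKM for Gpx1 in obese libraries.

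The levels of the 39 genes spanned a wide range on the FPKM scale, which is per length and so allows genes to be compared. Over the 6 libraries Txnip averaged 396.4 FPKM, Gpx1 379.6, Sod1 330.7, Gstp1 307.5 and Gpx4 243.8 FPKM, each at or above the 97.3 percentile of tested genes by mean log2 level. At the other end, Nqo1 averaged 1.37 FPKM, Txnrd3 1.57 FPKM and Gpx3 2.01 FPKM. The summed FPKM of all 39 was 3277, 3170 and 3274 in obese 1, obese 2 and obese 3, and 2897, 2959 and 2835 in lean 1, lean 2 and lean 3. As a share of each library's summed FPKM this was 0.520%, 0.518% and 0.550% in obese and 0.448%, 0.451% and 0.460% in lean libraries, so the shares did not overlap. No test is given for these sums, in which the most abundant genes weigh most. Gpx1 alone averaged 464.2 FPKM in obese and 295.0 FPKM in lean libraries. Gstp1 went the other way, with 287.9 FPKM in obese and 327.2 FPKM in lean libraries. Of the 39 genes, 31 had a positive log2 difference and 8 a negative one.

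Mgst1 (gene 56615, chr6:138140527-138156755, GRCm38) gave the clearest difference of the 39. It encodes a microsomal glutathione S-transferase, an enzyme of the endoplasmic reticulum and the outer mitochondrial membrane that conjugates glutathione to electrophiles and reduces lipid hydroperoxides. Mgst1 had 15.6, 13.8 and 15.1 FPKM in obese 1, obese 2 and obese 3, against 6.78, 6.74 and 6.90 FPKM in lean 1, lean 2 and lean 3. All 3 obese libraries were about equally high, obese 2 included, and the lean libraries hardly differed from each other. The means were 14.8 ± 0.946 FPKM in obese and 6.81 ± 0.0833 FPKM in lean libraries (SD, n = 3 each), a 2.18-fold ratio. The log2 difference was 1.02 ± 0.09 (SE; limma, adjusted p = 5.53e-04). Mgst1 was called in each of the 19 alternatives run, with adjusted p up to 0.0283, and obese 2 alone stood 0.92 above the lean libraries (limma, adjusted p = 0.0283, the lone library being assumed to vary like the lean ones). Macrophage markers were higher in the same 3 libraries, by a median of 1.50 on the log2 scale, and their part in the difference was not tested.

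The other glutathione S-transferases were not called. Gstm5, a mu class enzyme, had 5.99, 5.02 and 10.7 FPKM in obese libraries, against 4.59, 2.74 and 2.52 FPKM in lean libraries. Obese 3 stood well above the rest, and the log2 difference was 0.92 ± 0.26 (SE; limma, adjusted p = 0.0763; 0.0497 without obese 2). Gstt2, a theta class enzyme, and Gsto1, an omega class enzyme, had groups that did not overlap, at log2 differences of 0.26 and 0.25, but missed the threshold. Gstp1, the pi class enzyme and the most abundant transferase here, had 277.7, 310.8 and 275.1 FPKM in obese libraries, against 349.3, 349.1 and 283.2 FPKM in lean libraries. Its groups overlapped, and the log2 difference was −0.18 ± 0.10 (SE; limma, adjusted p = 0.288). Gstp3, a close relative, averaged 69.6 FPKM in obese libraries, and fragments shared between such near-identical copies make the split between them uncertain. Gstm1, another mu class enzyme, differed by 0.11 on the log2 scale and missed the threshold, and its sign turned after median-of-ratios scaling, with library weights and without obese 3.

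Gpx1 (gene 14775, chr9:108339080-108340342, GRCm38), a selenoenzyme that reduces hydrogen peroxide with glutathione, was the highest of the genes that rose. Gpx1 had 479.9, 370.3 and 542.3 FPKM in obese 1, obese 2 and obese 3, against 293.3, 319.4 and 272.2 FPKM in lean libraries. The groups did not overlap, and obese 2 lay nearest to the lean libraries. The means were 464.2 ± 87.0 FPKM in obese and 295.0 ± 23.6 FPKM in lean libraries (SD, n = 3 each). On the log2 scale the difference was 0.64 ± 0.14 (SE; limma, adjusted p = 0.0284). The adjusted p was 0.00371 without obese 2, but 0.0765 without obese 1, 0.0564 without obese 3, and 0.0904, 0.0650 and 0.0643 without lean 1, lean 2 and lean 3. Obese 2 alone stood 0.33 above the lean libraries (limma, adjusted p = 0.472), and the difference was 0.52 after median-of-ratios scaling (limma, adjusted p = 0.0700). Obese 2 was also the obese library with the lowest globin share, 0.702%, and the part of red cell RNA in the difference was not tested.

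The other glutathione peroxidases did not pass. Gpx4, which reduces lipid peroxides in membranes and protects cells from ferroptosis, had 241.2, 255.1 and 226.3 FPKM in obese libraries, against 258.3, 270.5 and 211.5 FPKM in lean libraries. The groups overlapped fully, and the log2 difference was −0.03 (95% interval −0.26 to 0.20), which turned positive under TPM scaling, when haemoglobin genes were left out of the scaling, with obese 2 alone, and without lean 1, lean 2 or obese 3. Gpx3, the secreted plasma enzyme, was low, with 2.12, 2.15 and 3.48 FPKM in obese libraries, against 0.90, 1.92 and 1.49 FPKM in lean libraries (log2 difference 0.56 ± 0.20 (SE); limma, adjusted p = 0.125).

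The 4 genes of glutathione synthesis and reduction all had obese libraries wholly above the lean ones, as had 25.4% of all tested genes, and none passed the test. Gclm, the modifier subunit of glutamate-cysteine ligase, which catalyses the rate-limiting step, had 19.3, 17.3 and 25.9 FPKM in obese libraries, against 14.2, 12.6 and 14.5 FPKM in lean libraries. Its log2 difference was 0.55 ± 0.14 (SE; limma, adjusted p = 0.0562), and it passed without obese 2 (adjusted p = 0.0341). Gclc, the catalytic subunit of the same enzyme, had 14.6, 14.4 and 18.6 FPKM in obese libraries, against 11.3, 9.68 and 14.2 FPKM in lean libraries. The gap between the groups was small, since obese 2 and lean 3 nearly met, and the log2 difference was 0.41 ± 0.15 (SE; limma, adjusted p = 0.134). Gsr, glutathione reductase, had 28.0, 31.2 and 31.4 FPKM in obese libraries, against 26.4, 23.3 and 23.0 FPKM in lean libraries (log2 difference 0.31 ± 0.09 (SE); limma, adjusted p = 0.0770). Gss, glutathione synthetase, had a log2 difference of 0.26 (95% interval −0.01 to 0.52).

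**Figure D2:**
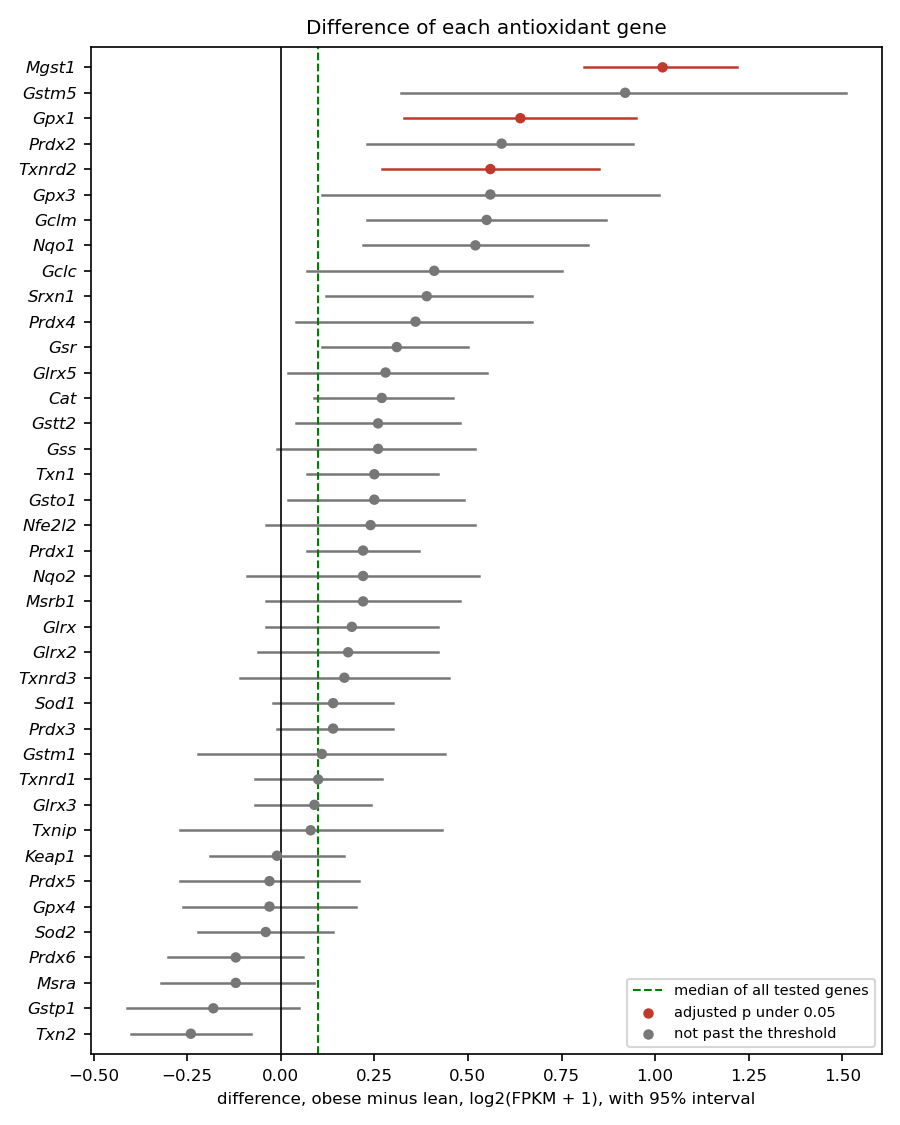
Difference between obese and lean libraries (horizontal axis, log2(FPKM + 1), obese minus lean) for the 39 antioxidant genes with 95% intervals from limma, sorted by size. The 3 genes with an adjusted p under 0.05 are in red, the dashed line marks the median of all tested genes at 0.10, and Txn2 has the lowest value at −0.24.

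Of the peroxiredoxins, which reduce peroxides through a reactive cysteine, none passed the test. Prdx2, a cytosolic peroxiredoxin, had 140.4, 100.5 and 158.2 FPKM in obese 1, obese 2 and obese 3, against 94.0, 88.5 and 78.6 FPKM in lean libraries. Its pattern was like that of Gpx1, with obese 2 close to the lean libraries. The log2 difference was 0.59 ± 0.15 (SE; limma, adjusted p = 0.0611), and the adjusted p was 0.00421 without obese 2. Prdx1, the other main cytosolic peroxiredoxin, had 196.7, 201.1 and 198.9 FPKM in obese libraries, against 166.7, 167.2 and 177.5 FPKM in lean libraries. Here the 3 obese libraries lay close together and above all lean ones, with a log2 difference of 0.22 ± 0.07 (SE; limma, adjusted p = 0.0821). After median-of-ratios scaling it was 0.10 (limma, adjusted p = 0.416), whereas Prdx1 passed with library weights (0.00433) and when haemoglobin genes were left out of the scaling (0.0281). Prdx3, the mitochondrial peroxiredoxin, had non-overlapping groups and a log2 difference of 0.14 (95% interval −0.01 to 0.30), or 0.027 after median-of-ratios scaling.

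The remaining peroxiredoxins overlapped between groups. Prdx4, the peroxiredoxin of the endoplasmic reticulum, had 29.8, 34.8 and 43.0 FPKM in obese libraries, against 26.6, 31.5 and 24.8 FPKM in lean libraries (log2 difference 0.36 ± 0.14 (SE); limma, adjusted p = 0.156). Prdx5, found in mitochondria, peroxisomes and cytosol, and Prdx6, which also has phospholipase activity, had log2 differences of −0.03 and −0.12, of which that of Prdx5 turned positive under TPM scaling, when haemoglobin genes were left out of the scaling, with obese 2 alone, and without lean 2 or obese 3. Srxn1, sulfiredoxin, which reactivates over-oxidised peroxiredoxins and is a known NRF2 target, was low, with 3.37, 2.90 and 3.95 FPKM in obese libraries, against 2.41, 2.20 and 2.43 FPKM in lean libraries. Its groups did not overlap, and the log2 difference was 0.39 ± 0.12 (SE; limma, adjusted p = 0.0913).

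**Figure D3:**
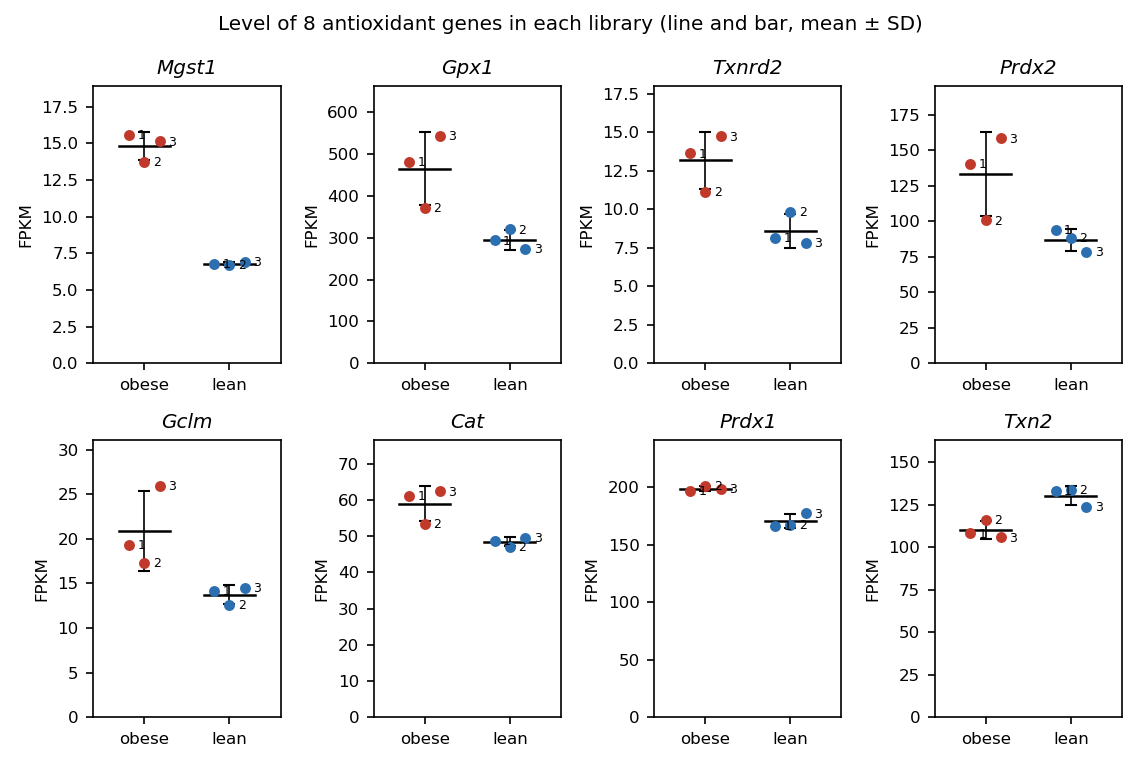
FPKM (vertical axes from 0) of 8 antioxidant genes in obese (left, red) and lean (right, blue) libraries, where numbers are library numbers, the line is the mean and the bar its SD (n = 3 each). Obese 2 lies below obese 1 and obese 3 for Gpx1, Txnrd2, Prdx2, Gclm and Cat, the 3 obese libraries lie close together for Mgst1 and Prdx1, and Txn2 is lower in obese libraries.

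Of 6 genes of the thioredoxin system, 1 rose and none fell, where 5.77% of all tested genes were higher and 0.519% lower. Txnrd2 (gene 26462, chr16:18426417-18479073, GRCm38), the mitochondrial thioredoxin reductase, had 13.6, 11.2 and 14.7 FPKM in obese libraries, against 8.14, 9.85 and 7.82 FPKM in lean libraries. All obese libraries lay above all lean ones, with obese 2 and lean 2 nearest to each other. Txnrd2 rose, with a log2 difference of 0.56 ± 0.13 (SE; limma, adjusted p = 0.0394). The adjusted p was 0.0260 without obese 2 and 0.0474 without lean 2, but 0.0963 without obese 1, 0.109 without obese 3, 0.120 without lean 1 and 0.0680 without lean 3. After median-of-ratios scaling the log2 difference was 0.45 (limma, adjusted p = 0.0858). Txn2, the mitochondrial thioredoxin that this reductase serves, had 108.2, 116.3 and 105.9 FPKM in obese libraries, against 133.3, 133.9 and 123.8 FPKM in lean libraries. It was the only one of the 39 genes with all obese libraries below all lean ones. The log2 difference was −0.24 ± 0.07 (SE; limma, adjusted p = 0.0842), and it passed after median-of-ratios scaling, at −0.36 (limma, adjusted p = 0.0450).

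The other thioredoxin genes were not called. Txn1, cytosolic thioredoxin, had 96.0, 88.1 and 89.5 FPKM in obese libraries, against 82.3, 76.4 and 71.6 FPKM in lean libraries. The groups did not overlap, and the log2 difference was 0.25 ± 0.08 (SE; limma, adjusted p = 0.0943). Txnrd1, the cytosolic reductase, had 21.3, 21.3 and 21.6 FPKM in obese libraries, against 19.6, 19.4 and 20.8 FPKM in lean libraries, a log2 difference of 0.10 (95% interval −0.07 to 0.27) that is equal to the median of all genes and turned negative after median-of-ratios scaling and quantile normalization. Txnrd3, a reductase best known from testis, stayed under 2 FPKM in every library (log2 difference 0.17, negative after quantile normalization). Txnip, which binds thioredoxin and restrains glucose uptake, had the highest mean of the 39 over all 6 libraries, though not in the obese ones, where Gpx1 was higher. Txnip had 435.1, 436.1 and 344.8 FPKM in obese libraries, against 325.8, 354.2 and 482.5 FPKM in lean libraries. The lowest obese library was obese 3 and the highest of all 6 was lean 3, so the groups overlapped, and the log2 difference was 0.08 ± 0.15 (SE, 95% interval −0.27 to 0.43; limma, adjusted p = 0.781), with its sign turning after median-of-ratios scaling and without lean 1. With library weights it was 0.34 and passed (limma, adjusted p = 0.0225).

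Superoxide dismutases and catalase were not called. Cat, catalase, an enzyme of peroxisomes, had 61.1, 53.5 and 62.3 FPKM in obese 1, obese 2 and obese 3, against 48.8, 47.1 and 49.6 FPKM in lean libraries. The groups did not overlap, obese 2 was again the lowest of the obese libraries, and the log2 difference was 0.27 ± 0.08 (SE; limma, adjusted p = 0.0813). Sod1, the cytosolic copper-zinc enzyme, had 368.4, 337.5 and 334.0 FPKM in obese libraries, against 311.8, 318.3 and 314.4 FPKM in lean libraries (log2 difference 0.14; limma, adjusted p = 0.255). The difference of Sod1 was 0.019 after median-of-ratios scaling (limma, adjusted p = 0.913) and 0.24 when haemoglobin genes were left out of the scaling (0.0490). Sod2, the mitochondrial manganese enzyme, had 16.6, 17.0 and 17.8 FPKM in obese libraries, against 18.3, 17.9 and 16.8 FPKM in lean libraries. These overlapped, and the log2 difference was −0.04 (95% interval −0.22 to 0.14), with a positive sign under TPM scaling and when haemoglobin genes were left out of the scaling.

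Neither Nfe2l2 nor Keap1 passed the test. Nfe2l2 had 33.4, 35.6 and 38.5 FPKM in obese libraries, against 26.8, 27.8 and 36.8 FPKM in lean libraries. Lean 3 lay within the obese range and the other lean libraries below it, with a log2 difference of 0.24 ± 0.12 (SE, 95% interval −0.04 to 0.52; limma, adjusted p = 0.253). The difference passed without lean 3, at 0.38 (limma, adjusted p = 0.0456), and with library weights, at 0.35 (limma, adjusted p = 0.00931). Keap1 had 27.8, 28.2 and 27.1 FPKM in obese libraries, against 28.3, 29.6 and 25.8 FPKM in lean libraries. Its log2 difference was −0.01 ± 0.08 (SE, 95% interval −0.19 to 0.17; limma, adjusted p = 0.951), and its sign turned under TPM scaling, when haemoglobin genes were left out of the scaling, with obese 2 alone, and without lean 1, lean 2 or obese 3. Nqo1, a quinone reductase and a textbook NRF2 target, had 1.52, 1.72 and 2.15 FPKM in obese libraries, against 0.88, 0.79 and 1.16 FPKM in lean libraries. The groups did not overlap, with a log2 difference of 0.52 ± 0.13 (SE; limma, adjusted p = 0.0532), at a level near the filter. Nqo2, a related enzyme with another electron donor, overlapped between groups (log2 difference 0.22, negative after quantile normalization).

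The glutaredoxins and methionine sulfoxide reductases overlapped between groups in every case. Glrx5, a mitochondrial glutaredoxin needed for iron-sulfur clusters, had 57.5, 49.6 and 67.4 FPKM in obese 1, obese 2 and obese 3, against 50.1, 49.2 and 42.8 FPKM in lean libraries. Obese 2 lay within the lean range (log2 difference 0.28 ± 0.12 (SE); limma, adjusted p = 0.170). Glrx, Glrx2 and Glrx3 of cytosol, mitochondria and iron-sulfur trafficking had log2 differences of 0.19, 0.18 and 0.09, of which that of Glrx3 turned negative after median-of-ratios scaling. Msrb1, the selenoprotein of the pair of reductases, and Msra had log2 differences of 0.22 and −0.12, and neither passed.

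Across the obese libraries the order was not the same for every gene. Obese 2 was the lowest of the 3 obese libraries for 14 of the 39 genes (35.9%), against 26.4% of all tested genes. These were Mgst1, Gstm5, Gpx1, Gclc, Gclm, Prdx2, Prdx3, Srxn1, Txn1, Txnrd2, Cat, Glrx3, Glrx5 and Msra. Obese 2 was the highest for 12 of the 39 (30.8%), against 27.8% of all tested genes. The 12 were Gstp1, Gstt2, Gpx4, Prdx1, Prdx5, Prdx6, Txn2, Txnip, Keap1, Nqo2, Glrx and Glrx2. Obese 3 was the highest obese library for 21 of the 39 (53.8%), against 50.5% of all tested genes, which is near that background. These counts are a description, with no test, and the part of red cell RNA in them was not tested.

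**Figure D4:**
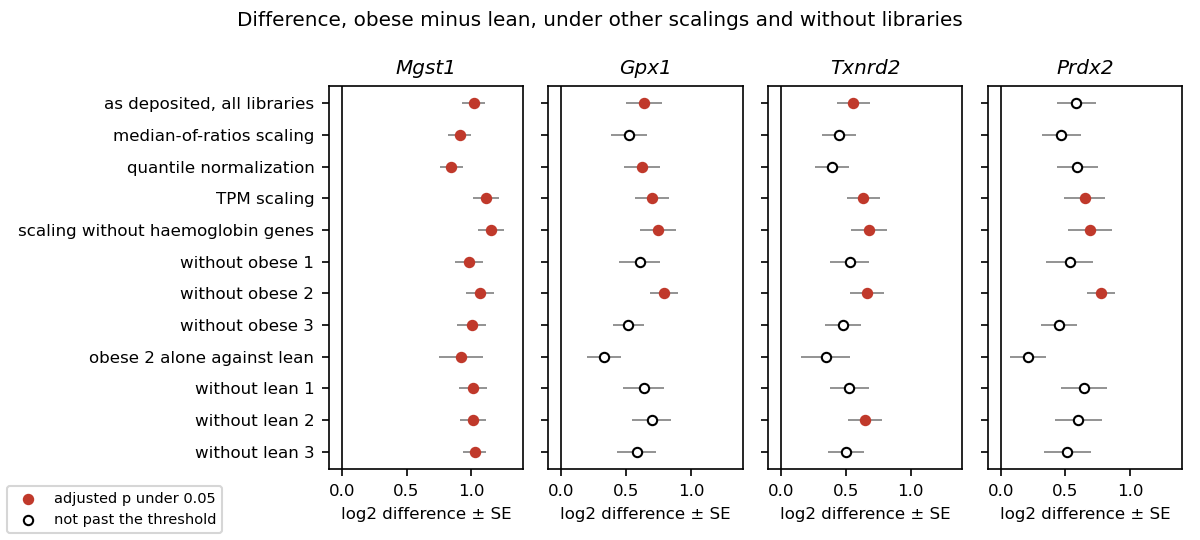
Log2 difference, obese minus lean, with its SE (horizontal axes) for Mgst1, Gpx1, Txnrd2 and Prdx2 under other scalings and with libraries left out (rows), where filled points have a limma adjusted p under 0.05. Mgst1 is filled in every row shown, with values between 0.85 and 1.15, whereas the other 3 genes are filled in some rows only and have their lowest values with obese 2 alone (0.33 for Gpx1, 0.35 for Txnrd2 and 0.21 for Prdx2).

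Genes around this set were taken from lists of related pathways, which were not tested as sets. Their counts stand against 5.77% of all tested genes called higher and 0.519% called lower, and with 1 or 2 calls a list nothing is read from the shares. Of 13 tested further NRF2 target genes, 2 rose and none fell, with a median log2 difference of 0.21 against 0.10 over all tested genes. Hmox1, haem oxygenase, which degrades haem and is high in red pulp macrophages, had 299.1, 267.9 and 259.1 FPKM in obese libraries, against 122.9, 98.1 and 112.2 FPKM in lean libraries. It rose by a log2 difference of 1.31 ± 0.10 (SE; limma, adjusted p = 4.00e-04) and was called in all 19 alternatives run. Blvrb, biliverdin reductase B, had 94.7, 64.4 and 113.7 FPKM in obese libraries, against 29.9, 39.9 and 33.0 FPKM in lean libraries. Its log2 difference was 1.35 ± 0.19 (SE; limma, adjusted p = 0.00486), it was called in all 19 alternatives run, and its lowest obese value was again in obese 2. Erythroid and macrophage markers were higher in the same libraries, as given above, and their part was not tested.

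None of the 10 tested partners and regulators of NRF2 was called (median log2 difference 0.06). Nfe2, Mafg and Bach1 came nearest, with log2 differences of 0.79, 0.41 and 0.37 (limma, adjusted p = 0.0826, 0.0704 and 0.0857). The obese libraries lay wholly above the lean ones for 4 genes of this list (Nfe2, Mafg, Bach1 and Nfe2l1), against 25.4% of all tested genes. They lay wholly below them for 1 (Mafk), against 6.15% of all tested genes. With 10 genes in the list, nothing is read from these counts. The most abundant gene of the list was Sqstm1, an adaptor that binds KEAP1. Sqstm1 had 166.1, 160.3 and 149.9 FPKM in obese libraries, against 157.9, 176.6 and 157.6 FPKM in lean libraries. Its log2 difference was −0.05, and the sign turned under TPM scaling, when haemoglobin genes were left out of the scaling, with library weights and without lean 2. Of 14 tested genes of NADPH supply, 1 rose and none fell (median 0.07). It was Idh1, the cytosolic isocitrate dehydrogenase, with 10.9, 9.85 and 9.89 FPKM in obese libraries, against 5.79, 5.50 and 6.70 FPKM in lean libraries (log2 difference 0.68 ± 0.10 (SE); limma, adjusted p = 0.00703). It did not pass with obese 2 alone against lean (adjusted p = 0.188).

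Of 17 tested other glutathione enzymes and transferases, 1 rose and 1 fell (median 0.10), and both were relatives of Mgst1. Mgst3 had 27.4, 14.9 and 39.0 FPKM in obese libraries, against 8.61, 9.35 and 5.85 FPKM in lean libraries. Its log2 difference was 1.58 ± 0.30 (SE; limma, adjusted p = 0.0195), obese 2 was the nearest to the lean libraries, and the call was lost on leaving out lean 1, lean 3 or obese 1 (adjusted p up to 0.0557). It was called in 13 of 19 alternatives and also missed with no filter (adjusted p = 0.0732), robust variances (0.0509) and obese 2 alone (0.165) by limma. Mgst2 had 24.9, 28.8 and 25.0 FPKM in obese libraries, against 41.6, 33.6 and 33.0 FPKM in lean libraries. It fell by 0.44 on the log2 scale (SE 0.11; limma, adjusted p = 0.0491), and the call was lost on leaving out lean 1, lean 2 or any 1 obese library (adjusted p up to 0.133), under TPM scaling (0.0723) or when haemoglobin genes were left out of the scaling (0.0731). Mgst2 was called in 7 of 19 alternatives, with adjusted p up to 0.656. Of 17 tested genes of selenoprotein synthesis and other selenoproteins, 1 rose and none fell (median 0.14). It was Selenop, a secreted selenium carrier, with 179.3, 162.3 and 152.8 FPKM in obese libraries, against 123.4, 111.1 and 130.3 FPKM in lean libraries (log2 difference 0.44 ± 0.09 (SE); limma, adjusted p = 0.0249). The call was lost on leaving out lean 1, lean 2, obese 1 or obese 2 (adjusted p up to 0.0872) or after median-of-ratios scaling (0.0932), and Selenop was called in 12 of 19 alternatives, with adjusted p up to 0.282.

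**Figure D5:**
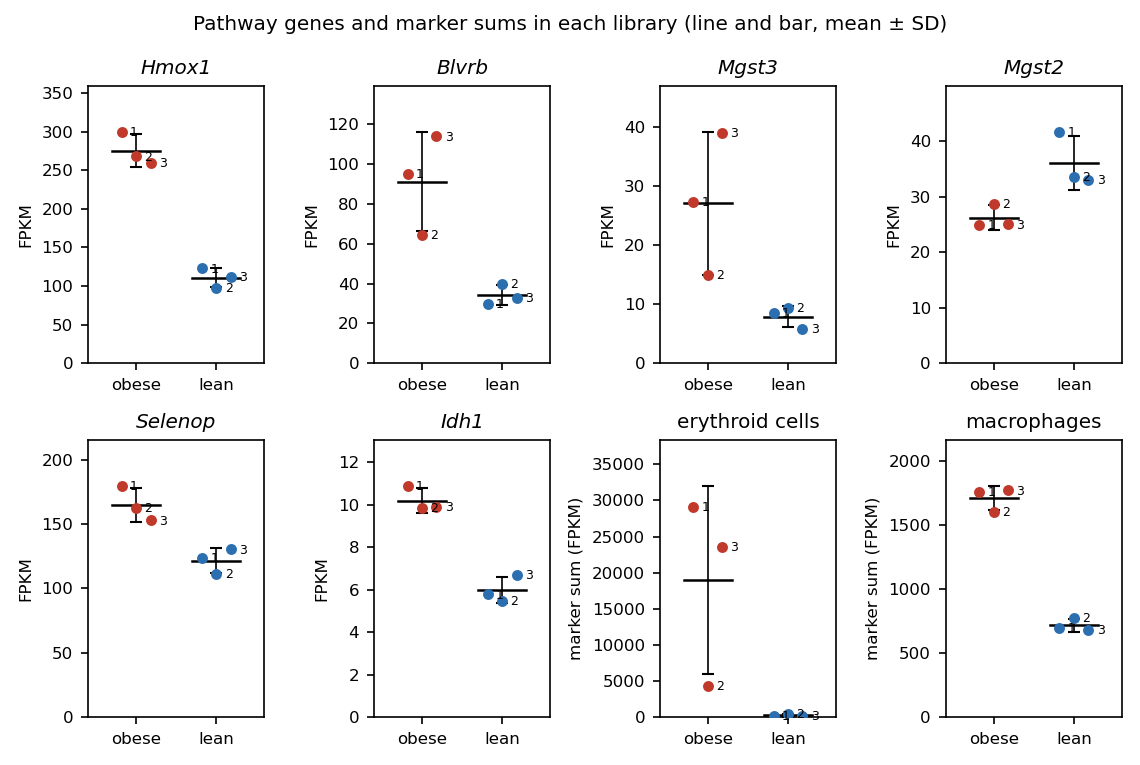
FPKM of 6 genes of related pathways and summed FPKM of erythroid and of macrophage and monocyte markers (vertical axes from 0) in obese (left, red) and lean (right, blue) libraries, with library numbers, mean and SD (n = 3 each). Erythroid markers, Blvrb and Mgst3 are lowest in obese 2 among the obese libraries, macrophage markers and Hmox1 are high in all 3, and Mgst2 is lower in obese libraries.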

How the data were processed

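The authors deposited 1 table per library, with FPKM values for 22899 genes. Bowtie, RSEM and the builds GRCm38 and mm10 are listed, with no version, per the submitters' processing notes, and the sources used here give no annotation release, filter or strand setting. FPKM is relative to all mapped fragments, so abundant transcripts lower every other value. Low values showed no clear whole-read steps (best score 0.254 to 0.296 of at most 1), so depth is unknown and the count test planned for counts was not run.

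Groups came from the sample titles. Genes at 1 FPKM or more in 3 or more libraries (10788) entered limma 3.58.1 (R 4.3.3) on log2(FPKM + 1), with group as the sole term and an intensity trend. P-values were 2-sided and Benjamini-Hochberg adjusted over all of these genes, and the fit was tested on simulated data. The 19 alternatives covered pseudocount, filter, scaling, variance model, replicate block and left-out libraries. All 39 genes are named, and from each pathway list up to 3 called genes or, with none called, the most abundant. Loci are from RefSeq GRCm38.p6. Members, lists and alternatives were chosen with earlier results of these data known.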

Additional observations from a re-analysis of the deposited data

How the results depend on the processing

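Mgst1, Hmox1 and Blvrb passed in all 19 alternatives run. Higher and lower calls over all genes, and higher calls among the 39 antioxidant genes, were 622, 56 and 3 in the fit reported. They were 344, 24 and 1 with no filter, 316, 36 and 3 with a filter at 5 FPKM, 441, 129 and 1 (with 1 lower) after median-of-ratios scaling, 322, 112 and 2 after quantile normalization, 707, 45 and 5 under TPM scaling, 951, 44 and 12 when haemoglobin genes and Igll1 were left out of the scaling, 2507, 609 and 17 (with 2 lower) with library weights, and 181, 19 and 1 with obese 2 alone against lean. Leaving out 1 library gave 299 to 601 higher and 19 to 97 lower genes (302 higher without lean 1 and 299 without lean 2, 97 lower without lean 3 and 22 without obese 1) and 1 to 6 higher and 0 lower antioxidant genes. With the replicate block the numbers were 866, 149 and 5, and Txnrd2 (adjusted p = 0.0593) and Mgst2 (0.0555) no longer passed by limma. Same-numbered libraries correlated at 0.032, 0.061 and 0.193 in their deviations from the group means. The value of 0.193, for obese 3 with lean 3, was the largest of all pairs, whereas obese 1 correlated best with lean 2 (0.160). With 3 libraries in a group, deviations from its mean are tied to each other. They cannot show whether same-numbered libraries share more than a number. Signs turned for small differences that did not pass either way: after median-of-ratios scaling for Txnrd1 (−0.014), Txnip (−0.041), Glrx3 (−0.030) and Gstm1 (−0.0023); after quantile normalization for Txnrd1 (−0.0008), Txnrd3 (−0.080) and Nqo2 (−0.035); under TPM scaling for Gpx4 (0.034), Prdx5 (0.033), Sod2 (0.018), Keap1 (0.051) and Sqstm1 (0.016); with haemoglobin genes out of the scaling for the same 5 (0.078, 0.077, 0.061, 0.095 and 0.060); with library weights for Gstm1 (−0.044) and Sqstm1 (0.0061); and with obese 2 alone for Gpx4 (0.056), Prdx5 (0.066) and Keap1 (0.016). With 1 library left out the ranges were −0.14 to 0.042 for Gpx4, −0.13 to 0.052 for Prdx5, −0.063 to 0.033 for Keap1, −0.037 to 0.25 for Txnip, −0.023 to 0.25 for Gstm1 and −0.079 to 0.0076 for Sqstm1. The causes were not tested. Depth is unknown, so no counting error can be given for genes near the filter such as Nqo1, Srxn1 and Gpx3.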

Other observations

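Each of 3 related gene lists outside the set held 1 gene that rose and none that fell, against 5.77% of all tested genes called higher. Among 7 tested subunits and regulators of NADPH oxidase, the enzyme with which phagocytes make superoxide, Cybb had 24.0, 27.4 and 41.6 FPKM in obese libraries, against 12.7, 15.1 and 14.2 FPKM in lean libraries (log2 difference 1.06 ± 0.18 (SE); limma, adjusted p = 0.0115; 18 of 19 alternatives, 0.0501 with no filter), and macrophage markers were higher in the same libraries. Among 9 genes of ferroptosis and lipid peroxides, Tfrc, the transferrin receptor of growing cells and red cell precursors, had 12.7, 6.09 and 19.7 FPKM in obese libraries, against 2.98, 2.73 and 3.54 FPKM in lean libraries (log2 difference 1.63 ± 0.32 (SE); limma, adjusted p = 0.0226), and did not pass without any 1 lean library or obese 1 (adjusted p up to 0.0836), and in 13 of 19 alternatives it was called. Among 6 alpha arrestins, relatives of Txnip, and their regulators, Arrdc3 had 4.88, 4.85 and 5.15 FPKM in obese libraries, against 2.40, 2.34 and 3.77 FPKM in lean libraries (log2 difference 0.66 ± 0.15 (SE); limma, adjusted p = 0.0386), and did not pass without lean 1, lean 2 or any 1 obese library (adjusted p up to 0.130) or after median-of-ratios scaling (0.0577), and in 9 of 18 alternatives it was called. The part of macrophage and erythroid RNA in these differences was not tested.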
